A study of Homo sapiens with 12 samples.

Results

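Transcripts of 8 regulators of the antioxidant response were followed across 12 RNA-seq libraries of 2 established triple-negative breast cancer cell lines. The genes were chosen by name from the 57500 genes of the deposited count table, and each symbol stood on a single gene ID. They comprised the activators NFE2L2 (the gene of NRF2) and NFE2L1 (NRF1), the inhibitor KEAP1, the repressors BACH1 and BACH2, and the small MAF genes MAFF, MAFG and MAFK. Earlier results of these data were known when the set was drawn up, among them the higher BACH2 level of depleted MDA-MB-468 cells, which is therefore given below as a description with no test. All 8 passed the filter on low counts, as did 27029 genes of the table.

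The libraries formed 4 groups of 3. HCC1806 cells carried either the guide sgC1 or the guide sgPACT-2, and MDA-MB-468 cells either sgNTA or sgPACT-2; sgC1 and sgNTA are read here as control guides. PRKRA encodes PACT, which binds double-stranded RNA and interacts with the kinase PKR. The labels do not say whether each culture was a clone or a pool, how long after guide delivery RNA was taken, or whether replicates were separate cultures, so p-values measure the spread between these libraries. Each line had its own control guide, so an effect of the line and one of that guide cannot be told apart.

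NRF2 and NRF1 are cap'n'collar bZIP activators that bind antioxidant response elements as heterodimers with a small MAF protein. KEAP1 is the substrate adaptor of a cullin-3 ubiquitin ligase that keeps NRF2 low until electrophiles or oxidants modify it, so much of the control of NRF2 acts on the protein and is not seen in RNA. BACH1 and BACH2 bind similar elements with the same small MAF partners and repress; BACH1 is released by heme, and BACH2 is best known from lymphocytes. Small MAF proteins lack a transactivation domain, and their homodimers can repress.

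HCC1806 libraries held between 18640633 and 24704877 counts, and MDA-MB-468 libraries between 34581754 and 44790741. The mitochondrial share was 11.6% to 15% in the former and 6.31% to 8.9% in the latter. The replicate spread was wider in HCC1806, with a biological coefficient of variation of 0.204 for the line fitted alone against 0.0936 in MDA-MB-468. Epithelial and basal keratin markers were expressed in both lines. Levels are given as CPM, counts divided by the TMM-scaled library size. PGR stayed at or under 0.300 CPM, whereas ESR1 measured 6.27 to 24.2 CPM and ERBB2 124.1 to 209.0.  PTPRC, the pan-leukocyte marker, did not exceed 0.585 CPM, while CD14 reached 76.6 to 106.4 in MDA-MB-468. PRKRA, the targeted gene, fell in HCC1806 by 1.07 on the log2 scale (SE 0.10, adjusted p = 1.7e-05). In MDA-MB-468 it differed by -0.20 (SE 0.10, adjusted p = 0.958), and an indel need not lower a transcript, so depletion in that line rests on the labels.

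MAFF and BACH2 stood higher in all 3 depleted libraries than in all 3 controls of both lines, and they were the only 2 of the 8 genes to do so. Of all genes tested 8.51% did so in HCC1806 and 6.2% in MDA-MB-468, and the share in both lines together was not counted. The MDA-MB-468 rise of BACH2 was known beforehand. The MAFF and BACH2 promoters below are shown because they were also the only ones to hold the cAMP response element TGACGTCA. This was among 13 RefSeq promoters of 7 of the genes (all but MAFK). The windows run from 250 bases before to 50 bases after the RefSeq start on GRCh38.p14, 5′ to 3′ on the gene's strand. The motifs were picked with the results in view. The windows lie at chr22:38201744-38202043 on the plus strand for MAFF and at chr6:90296794-90297093 on the minus strand for BACH2. Capitals mark matches to the searched motifs.
MAFF: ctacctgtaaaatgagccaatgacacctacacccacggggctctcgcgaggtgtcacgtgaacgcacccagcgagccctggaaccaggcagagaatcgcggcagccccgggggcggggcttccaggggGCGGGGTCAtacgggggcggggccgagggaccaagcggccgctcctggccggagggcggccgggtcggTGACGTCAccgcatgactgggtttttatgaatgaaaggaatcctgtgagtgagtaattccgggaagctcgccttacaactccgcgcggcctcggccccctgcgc
BACH2: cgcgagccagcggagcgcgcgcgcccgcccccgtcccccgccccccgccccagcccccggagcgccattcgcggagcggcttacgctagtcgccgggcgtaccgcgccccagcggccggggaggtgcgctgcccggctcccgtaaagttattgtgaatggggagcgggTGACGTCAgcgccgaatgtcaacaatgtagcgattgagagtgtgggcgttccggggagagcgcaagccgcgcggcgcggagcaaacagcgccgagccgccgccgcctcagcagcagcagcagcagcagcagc
The element begins 54 bases before the start of MAFF and 82 bases before that of BACH2. On either strand it occurs in 1.85% of all 35116 RefSeq promoters of 300 bases. The other run in capitals in MAFF, GCGGGGTCA, is the reverse strand of the antioxidant response element core TGACNNNGC, which 13.3% of promoters hold. By their letters that core and the cAMP response element cannot share bases, whereas the core and the AP-1 site TGANTCA can. KEAP1 was the other gene with the core, as TGACACGGC and GCTTAGTCA in the window of a downstream start. BACH1 alone held the AP-1 site, which is present in 7.71% of promoters, as TGAGTCA. A match is a run of letters, and binding was not measured.

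**Figure D1:**
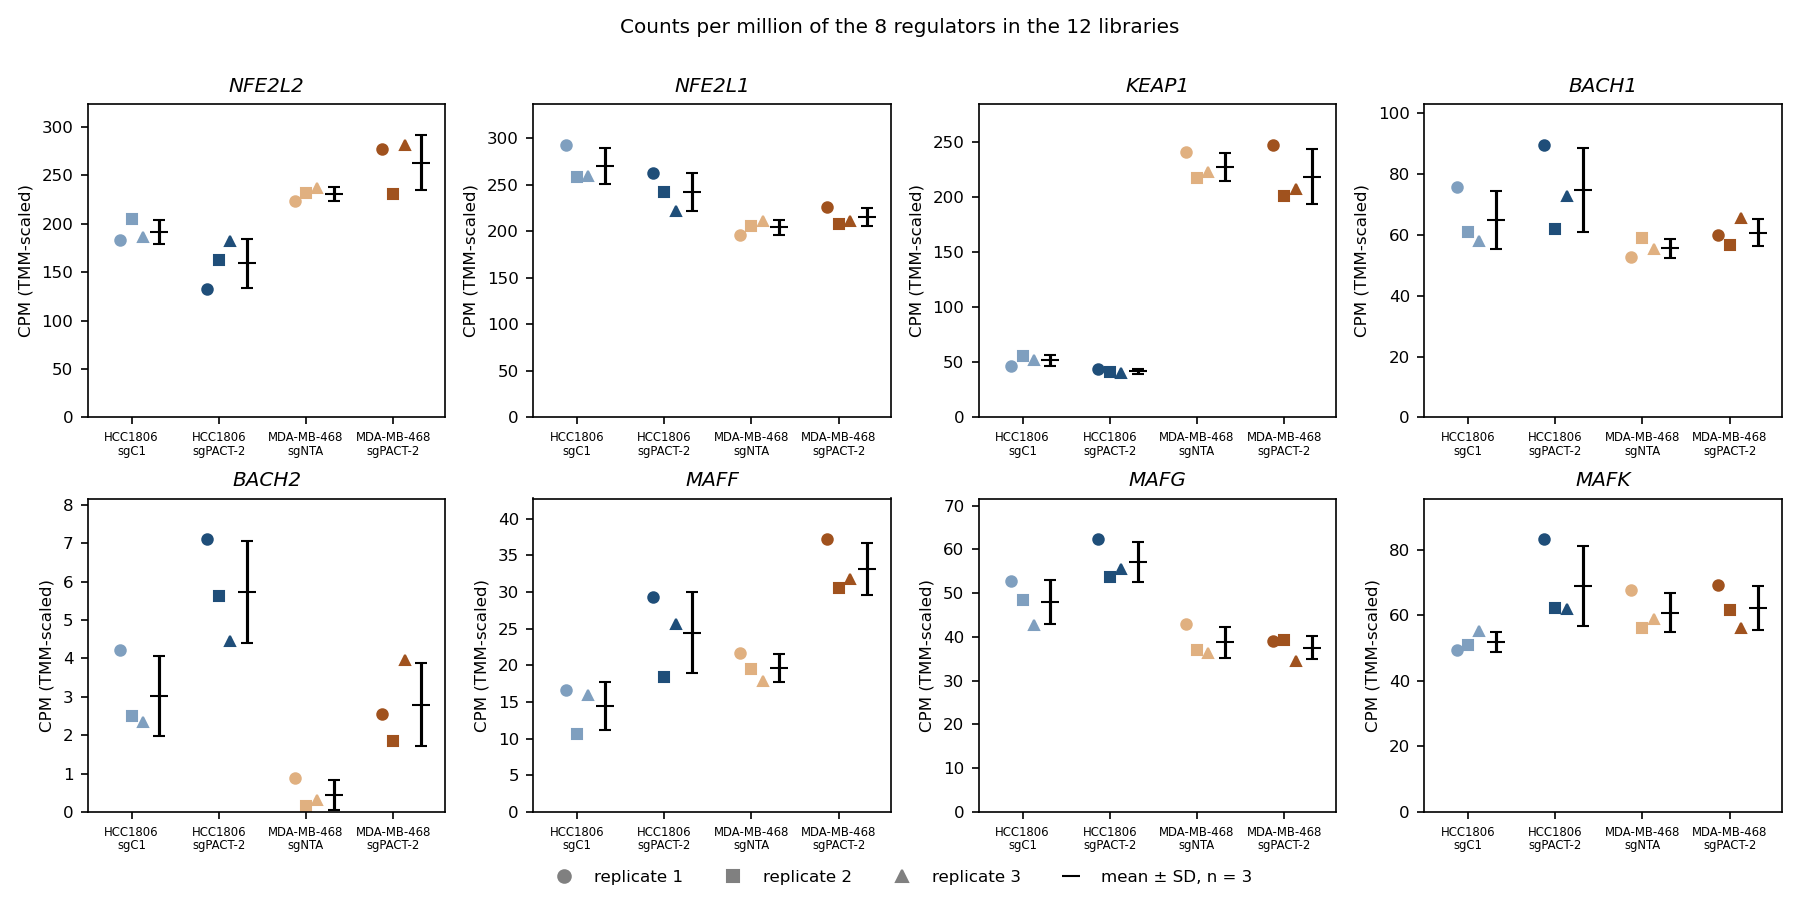
CPM (TMM-scaled, linear axes from 0) of each regulator in the 12 libraries; symbols are replicates and the black bar is the mean ± SD of 3. MAFF and BACH2 are higher in every depleted library than in every control of the same line, and KEAP1 separates the lines.

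In HCC1806, 1 of the 8 genes passed the test at an adjusted p under 0.05, against 2.49% of all genes tested. That gene was MAFF. An unadjusted p under 0.05 was reached by 6 of the 8, and by 3909 of all 27029 genes. DESeq2 called 1 too, against 4.61%. With HCC1806 fitted alone 0 of 8 passed in edgeR, against 0.315%. There 4 had an unadjusted p under 0.05, as did 2696 of all 23485 genes. With the replicate number as a block 3 of 8 passed, against 7.2%: MAFF, MAFK and KEAP1. CPM of the groups did not overlap for 4 genes that were higher in depleted libraries (BACH2, MAFF, MAFG and MAFK), where 8.51% of all genes were. The same held for 2 that were lower (NFE2L2 and KEAP1), where 8.17% were. TPM divides by exon length and then scales each library by its own total, without the TMM factors. In TPM the groups of these 2 overlapped, and those of the 4 did not. In MDA-MB-468 BACH2 is left out of the counts because its level was known beforehand. There 0 of the other 7 passed in the model of all libraries (edgeR), where 0.17% of all genes did. Of the 7 only MAFF had an unadjusted p under 0.05, as did 1424 of all 27029 genes. MAFF passed with DESeq2, where 113 of all 27029 genes did, and with MDA-MB-468 alone, where 1.51% did. Among the 7 it alone was higher without overlap in CPM there, as 6.2% of genes were. In TPM NFE2L2, NFE2L1 and BACH1 were also higher there without overlap, and the share of all genes in TPM was not counted. For the difference between the lines' responses 0 of the 7 passed in edgeR, against 0.122%, and 0 in DESeq2. In edgeR 2 of the 7 had an unadjusted p under 0.05 (NFE2L2 and MAFK), as did 2269 of all 27029 genes.

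**Figure D2:**
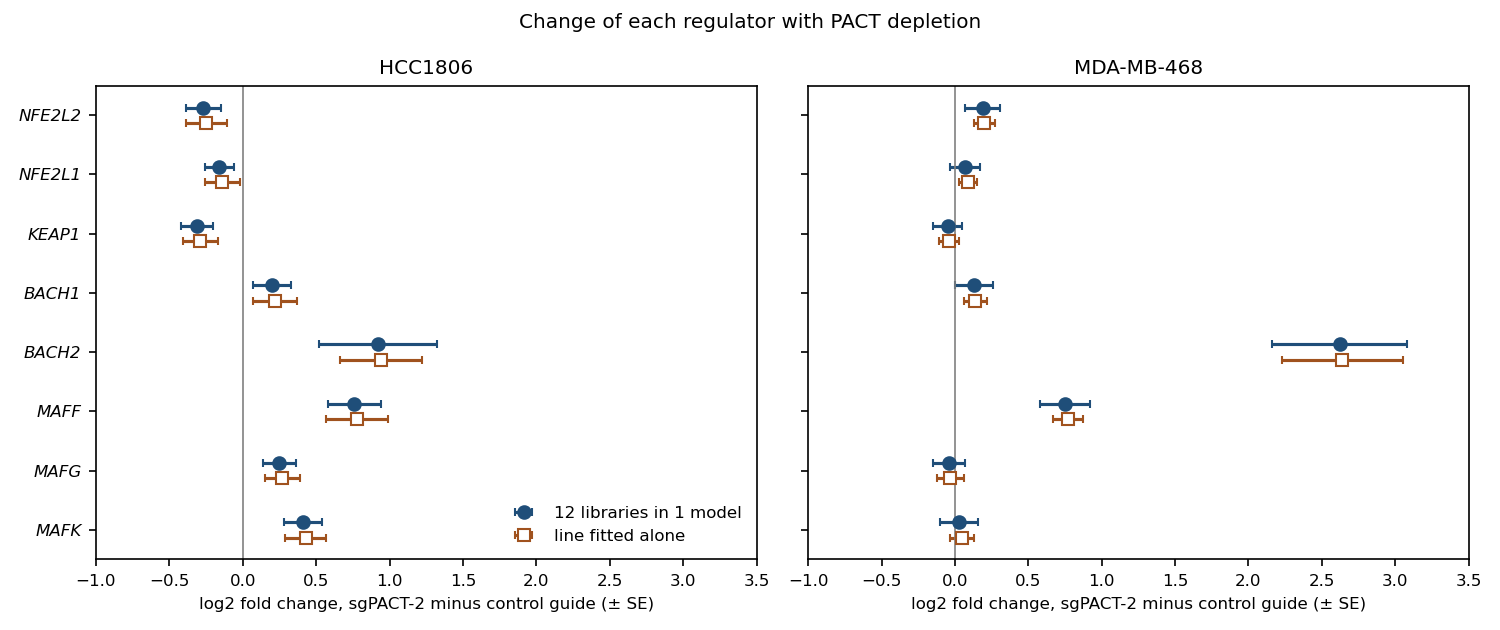
Log2 fold change of each regulator, depleted minus control, with its SE, in HCC1806 and MDA-MB-468; circles are from the model of 12 libraries and squares from each line fitted alone. MAFF lies at 0.76 and 0.75, and MDA-MB-468 bars are shorter when that line is fitted alone.

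MAFF (ENSG00000185022, GRCh38 chromosome 22, 38200767 to 38216511, plus strand), a small MAF gene known to be inducible by stress and cytokines, had nearly the same log2 fold change in both lines. Its CPM in HCC1806 were 16.7, 10.7 and 16.0 in controls and 29.3, 18.4 and 25.7 in depleted libraries. Replicate 2 was the lowest library of each group, and the groups did not touch. The means were 14.5 ± 3.24 and 24.5 ± 5.57 (SD, n = 3 each), a rise of 0.76 on the log2 scale (SE 0.18, adjusted p = 0.0318 by edgeR). Its adjusted p was 2.9e-04 with the replicate block and 0.19 with HCC1806 alone. The call was lost without HCC1806 control replicate 2 (0.59, adjusted p = 0.105), HCC1806 depleted replicate 3 (0.72, 0.063), MDA-MB-468 control replicate 2 (0.76, 0.0544) or MDA-MB-468 depleted replicate 3 (0.76, 0.0513).

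In MDA-MB-468 the MAFF values were 21.7, 19.5 and 17.9 CPM in controls and 37.2, 30.5 and 31.8 in depleted libraries. The lowest depleted library stood well above the highest control. Means of 19.7 ± 1.93 and 33.2 ± 3.52 (SD, n = 3 each) differed by 0.75 on the log2 scale (SE 0.17), with an adjusted p of 0.135 in the model of 12 libraries and 6.8e-06 with the line alone. It also passed with edgeR on all libraries without HCC1806 depleted replicate 1 (0.76, adjusted p = 0.0169), and with DESeq2 (0.0232). Alone, MAFF passed in 6 of 6 fits that each left out 1 library. Between libraries of the same number the log2 differences were 0.82, 0.78 and 0.69 in HCC1806 and 0.77, 0.65 and 0.83 in MDA-MB-468. As the groups did not overlap in either line, any pairing of libraries would give positive differences, so their direction adds no support. The difference between the lines' responses was -0.01 (95% interval -0.49 to 0.47, adjusted p = 1). MAFF overlaps PLA2G6 on the opposite strand and the strand setting of the counting is not given in the sources used here; PLA2G6 measured 0.25 and -0.04 on the log2 scale in the lines and did not pass in either.

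MAFG (ENSG00000197063, chromosome 17, 81918270 to 81927714, minus strand), an NRF2 target itself and the broadly expressed family member, measured 52.7, 48.5 and 42.7 CPM in HCC1806 controls and 62.3, 53.7 and 55.5 after depletion. The depleted libraries were all higher, by a narrow margin. The log2 fold change of 0.25 (SE 0.11, adjusted p = 0.305) did not pass. In MDA-MB-468 MAFG gave 42.9, 37.0 and 36.3 CPM in controls and 39.0, 39.2 and 34.5 in depleted libraries, which overlapped (-0.04, SE 0.11). MAFG overlaps SIRT7 on the same strand, so reads of the pair may be shared.

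MAFK (ENSG00000198517, chromosome 7, 1530714 to 1543043, plus strand), the remaining small MAF gene, measured 49.4, 50.9 and 55.2 CPM in HCC1806 controls against 83.2, 62.1 and 61.8 in depleted libraries. Depleted replicate 1 stood apart from the other two. The log2 fold change was 0.41 (SE 0.13, adjusted p = 0.106), and MAFK passed with the replicate block (0.40, adjusted p = 0.0265). It was 0.26 without depleted replicate 1. Scaling by library size only gave 0.53 (adjusted p = 0.0199), and that scaling also moved the median of all genes in this line from 0.01 to 0.13. In MDA-MB-468 MAFK measured 67.6, 56.1 and 58.8 CPM in controls and 69.2, 61.5 and 56.1 after depletion, with overlap (0.03, SE 0.13). The difference between the lines was -0.38 (SE 0.18, adjusted p = 0.594) for MAFK and -0.30 (SE 0.16, adjusted p = 0.645) for MAFG, so a response particular to HCC1806 was not shown. MAFK overlaps TMEM184A on the opposite strand, which did not pass in either line (0.18 and -0.26).

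The make-up of the small MAF pool was read from TPM, which divides by exon length. MAFF took 12.3%, 8.46% and 12.1% of the summed TPM of the 3 genes in HCC1806 controls and 14.6%, 11.9% and 15.8% in depleted libraries. One depleted library lay within the control range there. In MDA-MB-468 its share was 14.2%, 15.0% and 13.7% in controls and 22.3%, 20.3% and 22.8% after depletion, with a clear gap. The log2 ratio of MAFF to MAFG went from -1.08 ± 0.05 to -0.29 ± 0.15 in MDA-MB-468 without overlap, and from -1.86 ± 0.39 to -1.35 ± 0.26 in HCC1806 with overlap (SD, n = 3 each). Between same-numbered HCC1806 libraries that ratio was higher after depletion in all 3 pairs, at -1.77 and -1.19, -2.28 and -1.65, and -1.52 and -1.21, and so was the MAFF share. Such ratios within a library do not depend on how libraries are scaled. The ratio of MAFK to MAFG overlapped between groups in both lines. Summed over the 3 genes, TPM went from between 65.3 and 67.7 to between 81.5 and 112.3 in HCC1806, and from between 64.5 and 72.6 to between 74 and 85.2 in MDA-MB-468. The summed CPM of MDA-MB-468 overlapped (112.6 to 132.2 and 122.5 to 145.4).

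**Figure D3:**
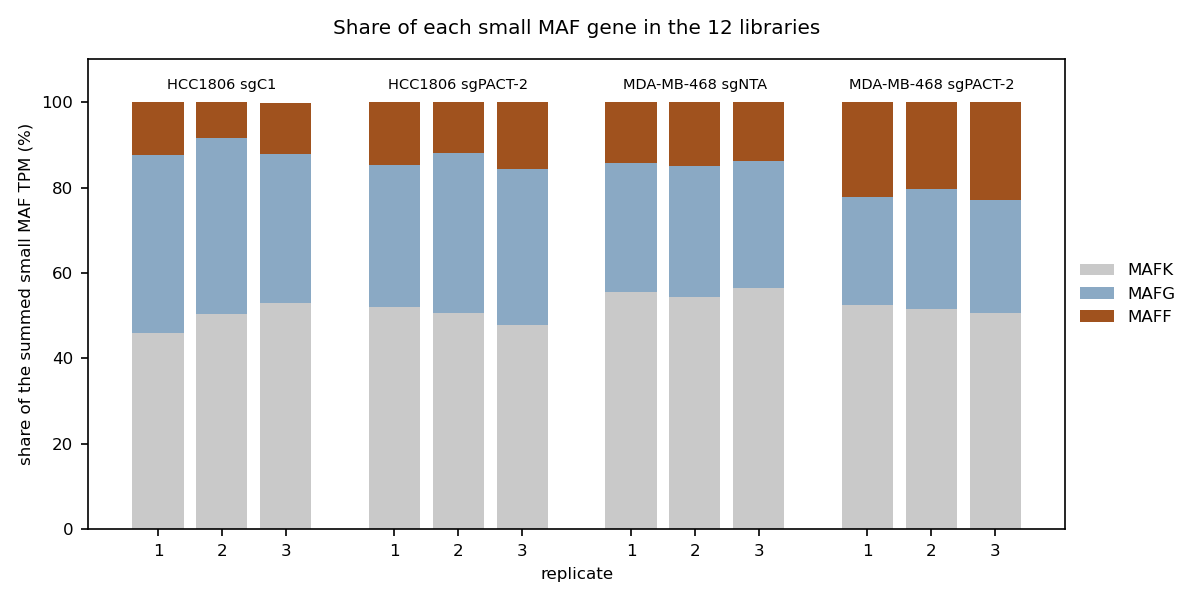
Share (%) of the summed TPM of MAFK, MAFG and MAFF held by each gene in every library, stacked to the whole, with replicates side by side within each group. The MAFF share is 13.7% to 15.0% in MDA-MB-468 controls and 20.3% to 22.8% after depletion, and in HCC1806 its groups overlap, with the depleted library higher in each of the 3 same-numbered pairs.

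BACH2 (ENSG00000112182, chromosome 6, 89926529 to 90296908, minus strand) was the scarcest of the 8 genes. In MDA-MB-468 controls it had 32, 5 and 12 counts, or 0.892, 0.152 and 0.3 CPM. The depleted libraries held 89, 62 and 129 counts, or 2.54, 1.86 and 3.97 CPM. Control replicate 1 was the highest of its group and still below every depleted library. The means of 0.448 ± 0.391 and 2.79 ± 1.07 CPM (SD, n = 3 each) correspond to a log2 fold change of 2.62 (SE 0.46), given here with no test. Leaving out 1 library gave values from 2.24 (without control replicate 2) to 3.57 (without control replicate 1).

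In HCC1806, where its control level was higher, BACH2 measured 4.21, 2.51 and 2.33 CPM in controls and 7.1, 5.63 and 4.44 after depletion. The groups came close but did not overlap. The log2 fold change was 0.92 (SE 0.40, adjusted p = 0.283; 0.0715 with the replicate block), and it did not pass. Differences between same-numbered libraries were 0.75, 1.17 and 0.93. With the line alone and the replicate block the adjusted p was 0.0342. The responses of the lines differed by 1.70 (SE 0.60), also given with no test because it holds the known value. Mean BACH2 levels in HCC1806 were 3.02 ± 1.04 CPM in controls and 5.73 ± 1.33 after depletion (SD, n = 3 each), so depleted MDA-MB-468 cells came near the control level of HCC1806.

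BACH1 (ENSG00000156273, chromosome 21, 29194071 to 29630751, plus strand), the heme-regulated repressor, was far more abundant than BACH2 and did not pass in either line. Its CPM were 75.8, 60.8 and 57.9 against 89.5, 62.0 and 72.7 in HCC1806, which overlapped (0.20, SE 0.13, adjusted p = 0.547). In MDA-MB-468 it measured 52.6, 58.8 and 55.2 in controls and 59.9, 56.6 and 65.4 after depletion, again with overlap (0.13, SE 0.13). In TPM the MDA-MB-468 groups did not overlap (18.1 to 21.3 in controls and 22.3 to 25.2 after depletion). The 95% intervals of its change ran from -0.06 to 0.46 and from -0.13 to 0.38. Per length, BACH2 stood at a log2 ratio to BACH1 of -4.81 ± 0.26 in HCC1806 controls and -4.06 ± 0.29 after depletion (SD, n = 3 each). In MDA-MB-468 that ratio went from -7.68 ± 1.37 to -4.85 ± 0.44. Neither pair of groups overlapped, and BACH1 remained the prevailing BACH transcript in all 12 libraries.

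NFE2L2 (ENSG00000116044, chromosome 2, 177227595 to 177392697, minus strand) had a negative log2 fold change in HCC1806 and a positive one in MDA-MB-468, and passed in neither in the model of all libraries. In HCC1806 it measured 183.1, 205.4 and 186.0 CPM in controls and 132.6, 162.9 and 182.2 in depleted libraries. The highest depleted library fell just short of the lowest control. That gap depended on the scaling: in TPM depleted replicate 3 stood at 103.4, above every control (82.8 to 102.9). The log2 fold change was -0.27 (SE 0.12, adjusted p = 0.294, and 0.0866 with the replicate block). With library size only it was -0.14 (adjusted p = 0.667). In MDA-MB-468 the CPM were 223.3, 231.5 and 237.4 in controls and 277.5, 230.9 and 281.6 after depletion, of which replicate 2 lay within the control range. In TPM the MDA-MB-468 groups did not overlap (99.5 to 114.3 in controls and 117.9 to 140.1 after depletion). The log2 fold change there was 0.19 (SE 0.12, adjusted p = 1; 0.172 with the line alone). With the line alone and without depleted replicate 2 it passed (0.28, adjusted p = 0.0304). The difference between the lines was 0.46 (95% interval 0.14 to 0.78, adjusted p = 0.425) and did not pass.

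NFE2L2 lies 1.2 Mb from PRKRA on chromosome 2, start to start. The 38 other genes that start within 5 Mb of PRKRA and average at least 50 counts had a median log2 fold change of -0.37 in HCC1806 (quartiles -0.50 and -0.08), against -0.02 over 14868 genes of the other chromosomes. Of these neighbours 33 were lower (86.8%, against 53.5% on the other chromosomes). Past the threshold 3 fell, against 313 of the 14868, and 24 lay below NFE2L2 itself, against 2545. Within 2 Mb of PRKRA 15 of 16 other such genes were lower, at a median of -0.43. In MDA-MB-468 the median was 0.00. The nearest such protein-coding genes on each side of NFE2L2 were read in HCC1806. HNRNPA3 fell by 0.51 (adjusted p = 0.0255). AGPS, which overlaps NFE2L2 on the opposite strand, measured -0.21 (0.43) and TTC30B -0.35 (0.423). MTX2, which lies outside the 2 Mb window, measured 0.38 (adjusted p = 0.159). The part of this regional shift in the NFE2L2 value was not tested.

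**Figure D4:**
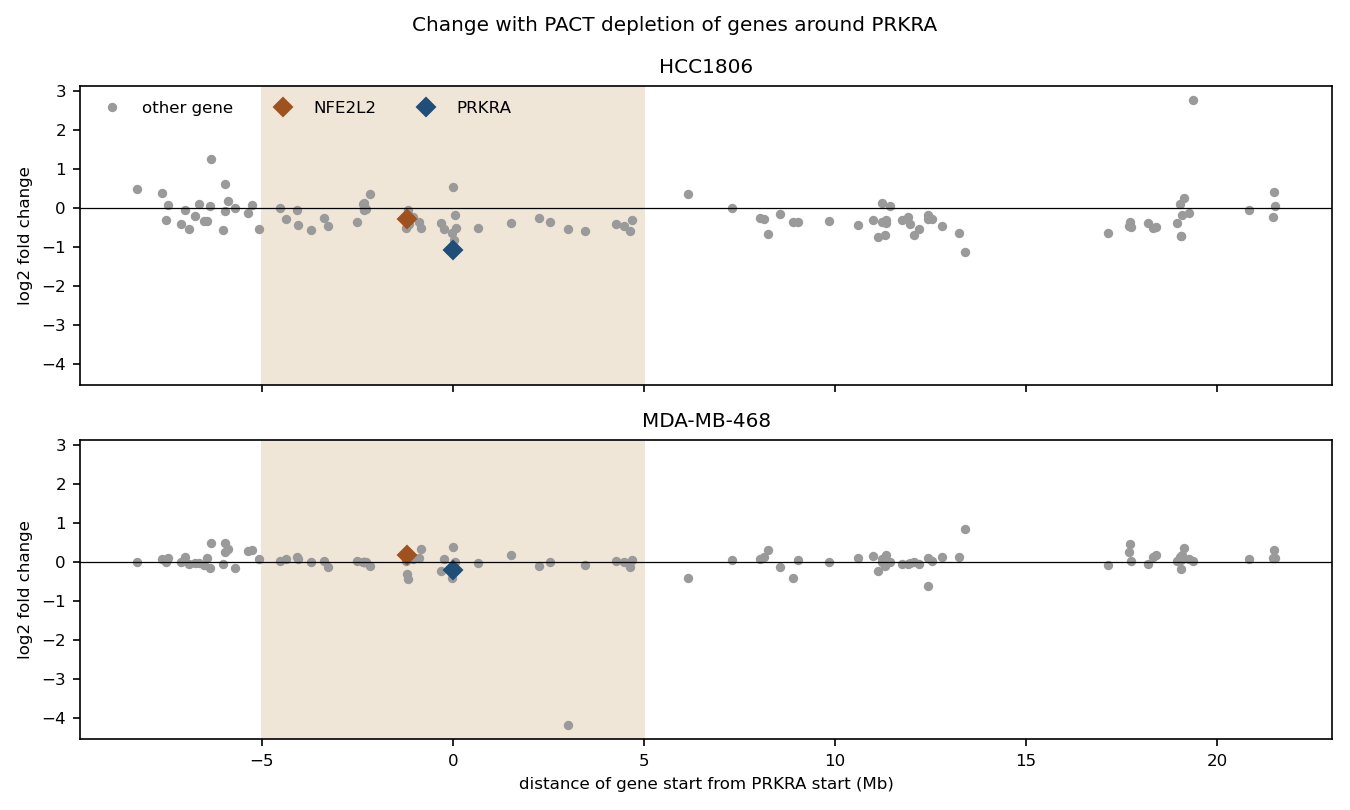
Log2 fold change, depleted minus control, of genes averaging 50 or more counts against the distance of their start from that of PRKRA (Mb), in HCC1806 (top) and MDA-MB-468 (bottom); the band marks 5 Mb on either side. Within the band the HCC1806 median is -0.37 and the MDA-MB-468 median 0.00, and NFE2L2 sits at -0.27 and 0.19.

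NFE2L1 (ENSG00000082641, chromosome 17, 48048329 to 48061487, plus strand), whose protein is processed out of the endoplasmic reticulum and drives proteasome genes, showed groups that overlapped in CPM in both lines. The HCC1806 values were 293.0, 258.0 and 259.7 CPM in controls and 263.3, 242.2 and 222.4 after depletion (-0.16, SE 0.10, adjusted p = 0.513). Those of MDA-MB-468 were 196.0, 205.5 and 211.6 against 226.5, 208.1 and 211.0 (0.07, SE 0.10). In TPM the MDA-MB-468 groups did not overlap (89.6 to 104.6 in controls and 107.8 to 111.9 after depletion). The 95% intervals of the change were -0.34 to 0.03 and -0.11 to 0.26.

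KEAP1 (ENSG00000079999, chromosome 19, 10486120 to 10503741, minus strand) separated the lines more than depletion separated the groups. In HCC1806 it measured 46.6, 56.2 and 52.6 CPM in controls and 44.2, 40.9 and 40.4 after depletion. All depleted libraries were lower, replicate 1 by little. In TPM the groups overlapped (33.5 to 44.8 in controls and 32.2 to 36.8 after depletion). The log2 fold change was -0.31 (SE 0.11, adjusted p = 0.163). With the replicate block it passed at 0.0487, and with HCC1806 alone its adjusted p was 0.399. With library size only it was -0.19 (adjusted p = 0.397). In MDA-MB-468 the CPM were 241.7, 217.5 and 223.1 in controls and 247.8, 201.2 and 207.9 after depletion, with overlap (-0.05, SE 0.10). The difference between the lines, 0.25 (SE 0.15, adjusted p = 0.688), did not pass. Per length, the log2 ratio of NFE2L2 to KEAP1 was 1.22 ± 0.08 in HCC1806 controls and 1.25 ± 0.30 after depletion. In MDA-MB-468 it went from -0.65 ± 0.12 to -0.40 ± 0.15 without overlap (SD, n = 3 each). Which gene is higher there depends on the length used: with the longest transcript NFE2L2 stood at 181.3 TPM against 172.2 for KEAP1 in controls and at 219.2 against 175.9 after depletion.

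Between the control libraries of the lines 5 of the 7 genes other than BACH2 differed, against 74.2% of all genes, a share close to that of the table. DESeq2 called 3 of the 7, against 20235 of all 27029 genes. KEAP1 was 4.39-fold higher in MDA-MB-468 (log2 2.14, SE 0.11, adjusted p = 1.2e-11), at 227.5 ± 12.7 against 51.8 ± 4.87 CPM (SD, n = 3 each). NFE2L1 was lower (-0.40, SE 0.10, adjusted p = 0.00109). BACH2 stood 6.66-fold lower (-2.74, SE 0.46), with no test because the MDA-MB-468 controls also enter its known value. KEAP1 and NFE2L1 passed in all 12 fits that left out a library. MAFG was lower (-0.31, SE 0.11, adjusted p = 0.0205), but not past the threshold without HCC1806 control replicate 1 (-0.22) or 2 (-0.27) or MDA-MB-468 control replicate 2 (-0.27) or 3 (-0.26). MAFF was higher (0.44, SE 0.18, adjusted p = 0.0314), and lost the call without HCC1806 control replicate 2 (0.30) or MDA-MB-468 control replicate 1 (0.37) or 2 (0.46). NFE2L2 was higher by 0.27 (SE 0.12, adjusted p = 0.045), a call lost in 5 of 12 such fits: without HCC1806 control replicate 1 (0.25) or 3 (0.27), or MDA-MB-468 control replicate 1 (0.30), 2 (0.27) or 3 (0.25). With only genes averaging at least 50 counts NFE2L2 measured -0.04, and with library size only 0.02. The latter scaling moved the median of all genes in this comparison from -0.26 to -0.51, and MAFF measured 0.20 with it (adjusted p = 0.273), so the calls of MAFF and NFE2L2 between the lines depend on the scaling. DESeq2 called neither (adjusted p = 0.0507 and 0.0912). BACH1 (-0.22, adjusted p = 0.134) and MAFK (0.23, adjusted p = 0.109) did not pass, although MAFK did without HCC1806 depleted replicate 1 (0.25, adjusted p = 0.0266) and BACH1 did with library size only (-0.47, adjusted p = 0.00191).

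The order of the transcripts per length reflected these line differences. In HCC1806 controls NFE2L1 led with 131.8 TPM, followed by NFE2L2 with 91.4, KEAP1 with 39.3, MAFK with 33.1, MAFG with 26.1, BACH1 with 23.8, MAFF with 7.28 and BACH2 with 0.869. KEAP1 and MAFK overlapped, as did MAFG and BACH1. In MDA-MB-468 controls KEAP1 led with 167.8 TPM, ahead of NFE2L2 with 107.3 and NFE2L1 with 97.5, which overlapped. MAFK followed with 37.8, then MAFG with 20.6 and BACH1 with 20, which overlapped, MAFF with 9.72 and BACH2 with 0.125. After depletion MAFK, at 48.9 TPM, passed above KEAP1, at 35.2, in HCC1806. The middle of that group, KEAP1, MAFG (34.6) and BACH1 (30.7), could not be ranked. In depleted MDA-MB-468 cells KEAP1 (172.5), NFE2L2 (130.5), NFE2L1 (109.6) and MAFK (41.4) kept their places, BACH1 (23.3) and MAFG (21.4) overlapped, and MAFF (17.5) stayed above BACH2 (0.845). With the longest transcript as gene length NFE2L2 came at the head of all 4 groups, and 4 of 8 genes kept their rank in each.

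Across the 12 libraries, after removal of each line's mean, the log2 CPM of MAFF and BACH2 had a Pearson r of 0.76, and those of MAFG and MAFK of 0.74. NFE2L2 ran against MAFK (-0.69) and MAFG (-0.68). Among 13228 protein-coding genes the profile most like that of MAFF was GADD45A, a growth arrest and DNA damage gene, with r of 0.97. NOCT (0.95) and MB21D2 (0.93) came next. On the log2 scale GADD45A measured 1.17 in HCC1806 and 1.10 in MDA-MB-468, NOCT 0.88 and 0.78, and MB21D2 0.52 and 0.59. These genes were picked for their likeness to MAFF in the same libraries. Their rises follow from that choice and are given with no test. For BACH2 the nearest profiles were ANKRD33B (0.95), ME3 (0.94) and HOXB9 (0.94), the last uncertain because it overlaps HOXB7 on the same strand. In MDA-MB-468 they measured 0.70, 0.36 and 2.45, and in HCC1806 0.33, 0.12 and 0.54; these follow the known BACH2 values and are given with no test. The points of these correlations share libraries and the contrast of depletion.

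NRF2 target genes were lower in HCC1806 although NFE2L2 itself did not pass. Of 30 such genes 15 fell and 1 rose in the model of 12 libraries, against 1.32% of all genes falling; 27 were below 0 and the median was -0.52, against 0.01 over all genes. A fall of some of these genes had been seen in these data before, so the count is not independent evidence. NQO1, the quinone reductase, measured 134.6, 107.1 and 103.3 CPM in controls and 72.6, 62.9 and 55.7 in depleted libraries. Every depleted library lay below every control. Its mean fell from 115.0 ± 17 to 63.7 ± 8.48 CPM (SD, n = 3 each), which was -0.85 on the log2 scale (SE 0.12, adjusted p = 9.5e-04). TKT, transketolase of the pentose phosphate pathway, fell by 0.69 (SE 0.11, adjusted p = 0.00242). The 15 ranged from -0.43 for TXNRD1 to -1.03 for ALDH3A1, genes that were picked after their values were seen, like those that follow. They took in the pentose phosphate enzyme PGD (-0.54), the peroxiredoxin PRDX1 (-0.62) and the catalytic subunit of glutathione synthesis GCLC (-0.63), while its modifier GCLM measured 0.00. AKR1C2 and AKR1C3 were among the 15, and reads of the near-identical AKR1C genes are uncertain. With HCC1806 alone only NQO1 passed (adjusted p = 0.0439), where 0.315% of all genes did. With library size only 8 genes passed, against 2.93% of all genes, with DESeq2 18, against 4.61%, and with the replicate block 20, against 7.2%. Without HCC1806 depleted replicate 1, 18 targets passed, against 6.15% of all genes, and without HCC1806 control replicate 1, 7 did, against 1.03%. Without replicate 2 of the HCC1806 controls or of the depleted libraries 10 passed, against 1.42% and 1.35%. Without MDA-MB-468 control replicate 1, 2 or 3 the counts were 10, 9 and 10, against 1.6%, 1.52% and 1.59%. Over all 12 such fits the median lay between -0.57 and -0.44. Some epithelial and basal markers were also lower in this line. The sum of 6 basal or squamous markers was 2362 to 2577 CPM in controls and 1791 to 1906 after depletion, EPCAM went from 174.9 to 231.7 down to 108.4 to 158.6 and KRT5 from 616.0 to 935.5 down to 321.5 to 525.6, none with overlap. KRT17 ran the other way, with 17 to 21.2 and 25.8 to 31.4, and the sum of 4 epithelial markers overlapped (1096 to 1344 and 844.8 to 1255). The part of these markers in the result was not tested.

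HMOX1, heme oxygenase, was the gene that rose. Its CPM were 8.76, 9.89 and 6.86 in HCC1806 controls and 14.1, 21.8 and 24.6 after depletion, with replicate 1 the lowest depleted library. It went from 8.5 ± 1.53 to 20.2 ± 5.42 CPM in HCC1806 (SD, n = 3 each), which was 1.25 on the log2 scale (SE 0.19, adjusted p = 0.00194; 0.0528 with the line alone). It is a classical target of both NRF2 and BACH1. Of the 10 heme and iron genes listed as BACH1 targets 2 passed, against 2.49% of all genes: HMOX1 rose and FTL, the ferritin light chain, fell by 0.57 (SE 0.10, adjusted p = 0.00446; 0.12 alone), with a median of -0.24. SLC48A1, a heme transporter, measured -0.42 (adjusted p = 0.093). With HCC1806 alone 0 of the 10 passed in edgeR, against 0.315%, and with the replicate block 5 did, against 7.2%, 4 of them falling (FTL, SLC48A1, ME1 and SLC40A1). DESeq2 called 3, against 4.61%. In the model of all libraries 5 had an unadjusted p under 0.05, as did 3909 of all 27029 genes. FTH1, FTL, GCLM, HMOX1 and ME1 stand on both lists. SLC40A1 lies on chromosome 2, 11.1 Mb from PRKRA. Of 107 genes there between 170 and 200 Mb that average at least 50 counts, 83 were lower in HCC1806. Their median was -0.31, against -0.02 on the other chromosomes. The part of that shift in the SLC40A1 value was not tested.

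In MDA-MB-468 0 of 30 NRF2 targets passed in edgeR or DESeq2, with a median of -0.05, and 0 of 10 BACH1 targets, with a median of -0.01, against -0.01 over all genes. Of all 27029 genes 0.17% passed in edgeR and 113 passed in DESeq2. An unadjusted p under 0.05 was reached by 3 and 0 of them in edgeR, and by 1424 of all 27029 genes. With the line alone 3 NRF2 targets passed, where 1.51% of all genes did. SLC7A11, the cystine transporter, went from 56.2 ± 2.3 to 72 ± 8.19 CPM (SD, n = 3 each), 0.36 in the model of all libraries, with an adjusted p of 0.729 there and 0.0114 alone. PGD measured -0.28 (0.0327 alone), and AKR1C1, uncertain like its near-identical relatives, measured -0.36 (0.0357 alone). HMOX1 measured 0.37 (adjusted p = 0.958, 0.0744 alone) and ALDH3A1 -0.54 (0.942, 0.163 alone). BLVRB, biliverdin reductase, measured 0.10 and FTL -0.06. The responses of these lists were not tested between the lines.

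Genes that act on the regulators were followed in further lists. For comparison with the counts below, 3909 of all 27029 genes had an unadjusted p under 0.05 in HCC1806 (edgeR), and 1424 did in MDA-MB-468. Among 10 genes of NRF2 turnover 0 passed in either line in edgeR or DESeq2 (1 and 0 had an unadjusted p under 0.05). Their medians were -0.06 in HCC1806 and -0.01 in MDA-MB-468. SKP1 measured -0.22, the ligase SYVN1 0.16 and CUL1 -0.12 in HCC1806. In MDA-MB-468 GSK3A measured -0.12, SYVN1 -0.10 and RBX1 -0.13. Of 11 partners that bind KEAP1 or NRF2, 1 rose and 1 fell in HCC1806, where 2.49% of all genes passed. CDKN1A, the p21 cell cycle inhibitor, rose by 1.00 (SE 0.17, adjusted p = 0.00446; 0.0623 alone). PTMA, prothymosin alpha, fell from 416.9 ± 41.2 to 259.4 ± 8.4 CPM (SD, n = 3 each; -0.68, SE 0.10, adjusted p = 0.00168, and 0.0482 alone). CREBBP, a coactivator, measured 0.24 (0.259). In MDA-MB-468 0 of the 11 passed in edgeR or DESeq2, and 0 unadjusted; SQSTM1, the p62 adaptor that sequesters KEAP1, measured 0.19, DPP3 -0.19 and RXRA -0.13.

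Genes of NRF1 processing and BACH1 turnover, 9 in all, gave 0 calls in either line in edgeR or DESeq2 (1 and 0 had an unadjusted p under 0.05). Their medians were 0.04 in HCC1806 and 0.01 in MDA-MB-468. In HCC1806 the exporter XPO1 measured -0.26, the BACH1 ligase adaptor FBXL17 0.28 and the extraction ATPase VCP -0.22. VCP passed without depleted replicate 1 (-0.49, adjusted p = 0.0142). In MDA-MB-468 NGLY1 measured 0.13, SEL1L 0.10 and FBXL17 -0.09.

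The 32 proteasome subunit genes, whose transcription NRF1 controls, depended on which HCC1806 libraries were included. In all libraries 0 passed in edgeR or DESeq2 (3 unadjusted), with a median of -0.13 and 30 genes below 0. Their summed CPM were 2219, 1697 and 1794 in controls and 2298, 1501 and 1272 in depleted libraries. Replicate 1 was the highest of each group, and it alone was higher after depletion. Without depleted replicate 1, 14 of 32 genes fell, against 4.1% of all genes, 32 lay below 0 and the median was -0.38; without control replicate 1 or depleted replicate 3, 0 passed and the medians were -0.03 and -0.01. The part of these libraries in the result was not tested. With the replicate block 3 of the 32 fell, at a median of -0.16, where 1245 of all 27029 genes fell. PSMA1, a core particle subunit, measured -0.43 in all libraries (adjusted p = 0.208), -0.44 with the block (0.00608) and -0.66 without depleted replicate 1 (0.00501). PSMA4 (-0.26) and PSMB2 (-0.35, and -0.63 without that library) followed. With library size only the median was -0.01. In MDA-MB-468 0 passed in edgeR or DESeq2, also unadjusted, at a median of -0.05, and PSMB3 (-0.21), PSMB4 (-0.13) and PSMD8 (-0.11) had the smallest p. For NFE2L1 itself the HCC1806 pairs of libraries differed by -0.15, -0.09 and -0.22.

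Of 6 relatives of the regulators 5 were tested and 0 passed in edgeR in either line (2 and 0 had an unadjusted p under 0.05). In HCC1806 NRL measured 0.94 (from 1.23 to 2.37 CPM) and MAFA 0.87 (from 0.861 to 1.57), both at low levels. NRL passed there with DESeq2 (adjusted p = 0.0393). In MDA-MB-468 MAFA measured 1.21 and NFE2 0.29. In bulk RNA fewer cells of a state and less RNA per cell cannot be told apart, which holds for every level given here.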

How the data were processed

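Total RNA, depleted of rRNA, was sequenced from 12 libraries. The authors deposited raw counts of reads per Ensembl gene, which are whole numbers with unequal column totals. Trimmomatic 0.36, STAR 2.5.2b, featureCounts of Subread 1.5.2 and GRCh38 are named, per the submitters' processing notes; the annotation release and strand setting are not given in the sources used here. Gene names and positions came from GENCODE 29, which matched 56898 of 57500 IDs; genes with no name held 0.0284% of counts.

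The members, lists and motifs were chosen with earlier results of these data known. Genes passing filterByExpr were fitted in 1 quasi-likelihood model of 12 libraries with a coefficient per group (edgeR 4.0.16, R 4.3.3, TMM, two-sided, Benjamini-Hochberg over 27029 genes, threshold 0.05); 44375 genes had at least 1 count. SE is the absolute log2 fold change divided by the root of F, and 95% intervals are 1.96 SE either side. CPM are TMM-scaled; TPM use union exon lengths. Likeness and neighbour genes needed a mean of 50 counts. Motifs were searched on both strands of RefSeq promoters. In HCC1806 same-numbered libraries deviated together (r of 0.479, 0.294 and 0.152 over 15918 genes), so the numbers were taken as pairs there, from the data; control 2 correlated more with depleted 3 (0.351) than with depleted 2.

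Named genes were the 8 regulators, PRKRA, the 3 genes of each list with the smallest p per line, the 3 nearest profiles of MAFF and BACH2, and the 2 nearest genes on each side of NFE2L2; some genes that this rule names are not reported here. Alternatives were DESeq2 1.42.0, RLE factors, library size only, other filters, each line alone, the replicate block and leaving out each library; each line alone with left-out libraries or the block, and further settings of the lists, were added after seeing the data. No 2 libraries held identical counts. The scripts were tested on simulated data.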

Additional observations from a re-analysis of the deposited data

How the results depend on the processing

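Counts here include BACH2, whose MDA-MB-468 value was known beforehand. Of 704 results of the 8 regulators under another setting, 645 kept their direction and their side of the threshold, 34 lost the call, 24 gained it and 1 reversed: NFE2L2 between the control libraries, -0.04 with the stricter filter at 50 counts. The cause was not tested. In HCC1806, 1 regulator passed in the model of 12 libraries, as did 672 of all 27029 genes. With library size only, no filter or the stricter one 2 did, where 793 of 27029, 1351 of 44375 and 845 of 15918 genes did. With the line alone 0 did (also with any of its libraries left out), against 74 of 23485. The replicate block gave 3, against 1947 of 27029, and the line alone with the block 2, against 668 of 23485. Leaving out 1 library gave 0 to 1, where 301 to 1792 genes passed. In MDA-MB-468 same-numbered libraries correlated weakly, by 0.116, 0.075 and 0.106, against no more than 0.00375 for other numbers. Whether they are pairs is not known. There 2 regulators passed with DESeq2, no filter, the line alone or the replicate block, and BACH2 was 1 of them each time. Of all genes 113 of 27029, 143 of 44375, 323 of 21404 and 102 of 27029 passed in these settings. With the line alone and the block 3 regulators passed (NFE2L2 the added gene, 0.20, adjusted p = 0.00576), as did 1031 of 21404 genes. The count was 0 to 2 without 1 library, and 2 to 3 with the line alone and a library left out. For the difference between the lines 1 regulator passed with no filter (as did 275 of all 44375 genes), against 0, and that gene was BACH2. Between controls 6 passed, as did 20068 of all 27029 genes, and 3 to 7 without 1 library. NRF2 targets called in HCC1806 went from 16 to 1 with the line alone and 8 with library size only, and from 0 to 3 in MDA-MB-468 with the line alone; without 1 library they ranged from 7 to 18 in HCC1806. BACH1 targets in HCC1806 went from 2 to 0, and KEAP1 or NRF2 partners from 2 to 1, with the line alone; BACH1 targets reached 5 and proteasome genes 3 (from 0) with the replicate block. Without 1 library proteasome genes ranged from 0 to 14, NRF1 and BACH1 turnover genes and the relatives of the regulators from 0 to 1; the latter gave 1 with DESeq2. With the longest transcript as length 4 of 8 regulators kept their rank in each group. Of 84 differences in ratios under another setting 0 moved beyond the replicate SD. Depth limits BACH2 most, with 5 to 145 counts per library.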
